A study of Danio rerio with 2 samples.

Results

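The transcripts described here are those with far more reads at the animal pole than at the vegetal pole of the fertilised zebrafish egg. They were chosen by level: a transcript needed at least 200 reads in the animal pole library and at least 8 times the CPM there that it had in the vegetal pole library, where CPM is the read count scaled to a fixed library total. By this rule 83 transcripts were chosen, of 50038 in the table. They are 1.08% of the 7704 transcripts with at least 200 animal pole reads. The ratio of animal to vegetal reads fixed the choice, so the ratios below are a description, and no test of them is given.

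The zebrafish egg has an animal pole, where the cytoplasm gathers after fertilisation into the blastodisc that cleaves into the embryo, and a vegetal pole beneath which most of the yolk lies. Transcription of the embryo's own genome has not begun at this stage, so the messenger RNA was laid down by the mother during oogenesis. Some maternal mRNAs are held at one pole by signals in the RNA, and others move towards the animal pole with the streaming cytoplasm. Inherited position of this kind is one way in which an egg gives its future cells different contents.

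The animal pole group was 1 library from explants of the animal pole, and the vegetal pole group was 1 library from explants of the vegetal pole. Both came from dechorionated fertilised eggs of the AB strain, 0 to 20 min after fertilisation, with no genetic change or treatment named in the labels. The labels describe the RNA as poly(A)-enriched and do not say how many eggs were used or whether both poles were cut from the same eggs. Reads assigned to transcripts numbered 16533617 in the animal pole library, against 17685736 in the vegetal pole library. With 1 library per pole there is no replicate check, and no p-value is given. Intervals of ratios and shares below are 95% exact (Clopper-Pearson) intervals for counting error only. PCR copies are not independent molecules, so the intervals may be too narrow even for that error. Values are shares of the reads of each library, so the amount of RNA per explant was not measured.

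The table identifies transcripts by Ensembl number, and just 2 of its rows carry a gene name, neither of them among the 83. The gene name tables used here are keyed by gene and not by transcript. A match of these numbers was therefore not possible (0 of 83 matched), which says nothing about whether their genes are known. The transcripts are therefore named by number, without a gene or a role, and the lists of genes known to be animal or vegetal in the egg could not be applied.

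Together the 83 transcripts took 190871 animal pole reads, 1.15% of that library (1.15 to 1.16%), and 13066 vegetal pole reads, 0.0739% of that library (0.0726 to 0.0752%). Summed over the set, the animal library held 15.6 times the CPM of the vegetal library. The reads were unevenly shared among members: the 10 with the most animal pole reads held 42.6% of the set's animal reads, and the first 20 held 64.4%. Levels in RPKM, which is CPM divided by the transcript's length in kilobases and was computed here from the reads, had a median of 31.8 in the animal library, against 1.11 in the vegetal library. They ran from 0.473 to 708 RPKM in the animal library, against 0 to 37.2 RPKM in the vegetal library. The other 7621 transcripts with at least 200 animal reads had a median of 25.1 RPKM in the animal library, against 25.8 RPKM in the vegetal library, and their median ratio was 1.08. The upper quartile of the animal level was 129 RPKM in the members and 61.9 RPKM in the others, and the median animal CPM was 67.3 in the members and 41.2 in the others. The members thus had somewhat higher animal levels than other well-counted transcripts and far lower vegetal levels. The rule uses both levels, so neither difference is independent of the choice.

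**Figure D1:**
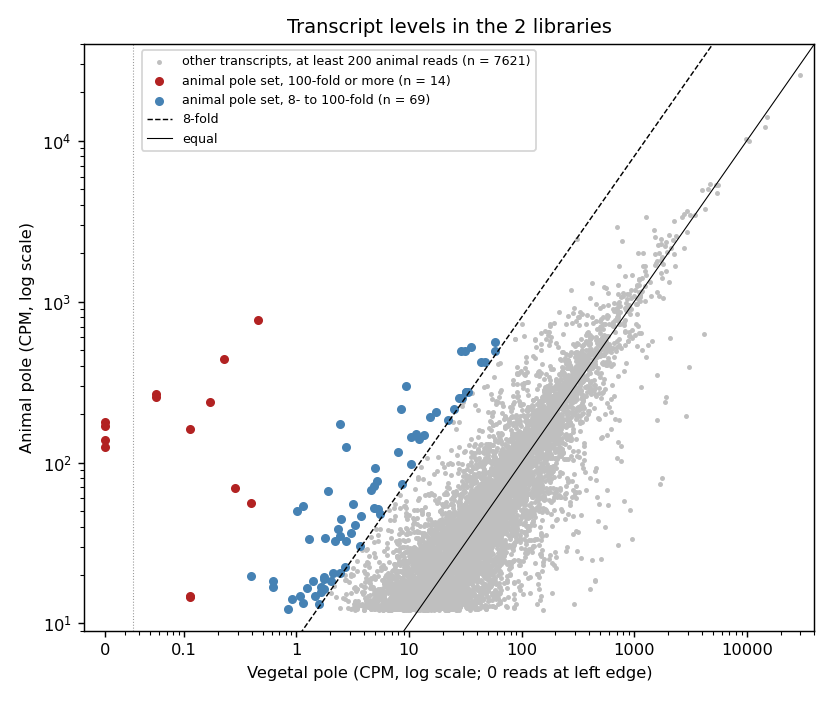
CPM in the animal pole library (vertical, log scale) against the vegetal pole library (horizontal, log scale, with 0 reads at the left edge) for every transcript with at least 200 animal pole reads. Of the 69 transcripts between 8- and 100-fold, the 52 under 16-fold lie close above the dashed 8-fold line. The 14 at 100-fold or more stand well to the left, 4 of them at 0 vegetal reads.

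The share of transcripts that met the 8-fold limit differed with the number of animal reads. Animal reads also enter the ratio, so a higher share at more animal reads is partly built into the rule. Members that look alike, described below, are counted separately here. Of 1649 transcripts with at least 2000 animal reads, 34 (2.06%) were members. Of 3039 with 500 to 1999 animal reads, 27 (0.888%) were members, and of 3016 with 200 to 499 animal reads, 22 (0.729%). The mirror-image rule, at least 200 vegetal reads and at least 8-fold towards the vegetal pole, chose 185 of 8335 transcripts (2.22%). These took 0.183% of the animal pole reads and 2.69% of the vegetal pole reads.

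Within the set, most transcripts sat near the limit and a few lay far beyond it. The ratio was between 8 and 16 in 52 members, between 16 and 32 in 11, and between 32 and 100 in 6. It was between 100 and 300 in 4 members and above 300 in the remaining 10, counting as above 300 the 4 members with no vegetal read. The median was 13.9. The largest ratio under 100 was 71.7 and the smallest above it was 130. The 14 members on the far side of this gap held 25.1% of the set's animal reads but only 0.268% of its vegetal reads, 47923 animal reads against 35 vegetal reads. The limit of 100 was set after the values were seen.

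**Figure D2:**
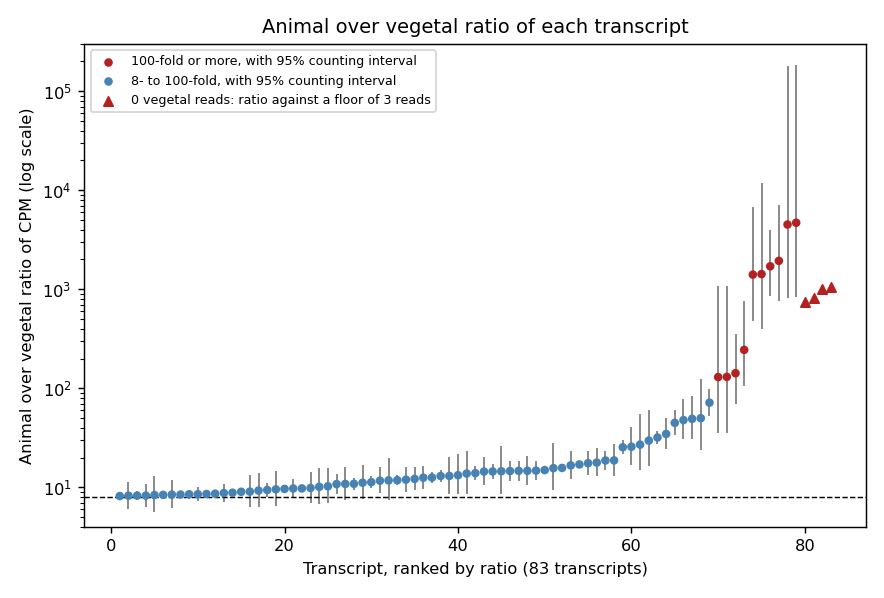
Animal over vegetal ratio of CPM (log scale) for each of the 83 transcripts, ranked, with 95% counting intervals; triangles mark the 4 transcripts without vegetal reads, placed at the ratio against a floor of 3 reads. Ratios stay between 8.17 and 71.7 over the first 69 transcripts and lie at 130 or above over the other 14.

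The 10 members above 300-fold were abundant at the animal pole and almost without reads at the vegetal pole. Each had at least 2076 animal reads and at most 8 vegetal reads, and 9 of the 10 were shorter than 1000 nt. The most counted was ENSDART00000077418 (1429 nt), with 12762 animal reads and 8 vegetal reads, or 540.2 RPKM in the animal library, against 0.317 RPKM in the vegetal library. It ranked 148 by reads in the animal library, against 21513 in the vegetal library. ENSDART00000138373 (619 nt) reached the highest level of the set per kilobase, 708 RPKM in the animal library, against 0.365 RPKM in the vegetal library, from 7247 and 4 reads.

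A further 4 of these members had 1 to 3 vegetal reads. ENSDART00000137617 (848 nt) had 4394 animal reads and 1 vegetal read, a ratio of 4700.2 with a counting interval of 843 to 185689. ENSDART00000144217 (920 nt) had 4216 animal reads and 1 vegetal read, a ratio of 4509.8 (809 to 178169). These intervals are wide because a single vegetal read carries the ratio. ENSDART00000147144 (777 nt) had 3947 animal reads and 3 vegetal reads, a ratio of 1407 (481 to 6827). ENSDART00000152067 (563 nt) had 2664 animal reads and 2 vegetal reads, a ratio of 1425 (394 to 11771). Since the intervals overlap widely, the order of these 4 members is not set by the data.

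No vegetal read was counted for the last 4. ENSDART00000142449 (796 nt) had 2967 animal reads (225 RPKM), which is at least 1058-fold higher against a floor of 3 vegetal reads. ENSDART00000137270 (778 nt) had 2800 animal reads (218 RPKM), at least 998-fold higher on the same floor. ENSDART00000136459 (562 nt) had 2290 animal reads (246 RPKM), at least 817-fold higher. ENSDART00000135339 (939 nt) had 2076 animal reads (134 RPKM), at least 740.2-fold higher. The floor is the level that a count of 0 still allows, 3 reads or 0.170 CPM in the vegetal library. The 95% counting intervals begin lower, at 859.8, 811, 664 and 601 for these transcripts in the same order.

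The 4 members between 100 and 300 had fewer animal reads than the 10 above 300-fold. ENSDART00000105942 (1773 nt) had 1143 animal reads and 5 vegetal reads, a ratio of 245 (104 to 755). ENSDART00000114043 (1445 nt) had 930 animal reads and 7 vegetal reads, a ratio of 142 (68.7 to 354). ENSDART00000059255 (1962 nt) and ENSDART00000146864 (881 nt) had 244 and 243 animal reads and 2 vegetal reads each, and their intervals began at 35.7 and 35.6. Only the first of the 4 had an interval wholly above 100. Their animal levels, 7.52 to 39.0 RPKM, were far below those of the 10 members above 300-fold, which ran from 134 to 708 RPKM. Animal reads enter the ratio that separates these classes, so the differences in animal reads and levels are partly built in.

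The remaining 69 members had from 7 to 1033 vegetal reads. After ENSDART00000077418, the most counted transcripts of the whole set belonged mostly here. ENSDART00000041677 (1545 nt) had 9272 animal reads and 1016 vegetal reads, or 363 RPKM in the animal library, against 37.2 RPKM in the vegetal library, which is a ratio of 9.76 (9.15 to 10.4). This was the highest vegetal level of any member. ENSDART00000112217 (3690 nt) had 143 RPKM in the animal library, against 9.55 RPKM in the vegetal library, which is a ratio of 14.9 (13.8 to 16.2). ENSDART00000130129 (3365 nt) had 146 RPKM in the animal library, against 17.4 RPKM in the vegetal library, which is a ratio of 8.40 whose interval of 7.88 to 8.97 crosses the limit of 8. Such transcripts were depleted at the vegetal pole and yet kept many reads there. Among the members, 19 had at least 200 vegetal reads, and these held 51.7% of the set's animal reads. The median was 774 vegetal reads in the other 7621 transcripts with at least 200 animal reads.

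Some other well-counted transcripts among the 69 had steeper ratios. ENSDART00000123614 (4953 nt) had 4921 animal reads and 165 vegetal reads, or 60.1 RPKM in the animal library, against 1.88 RPKM in the vegetal library, which is a ratio of 31.9 (27.3 to 37.5). The largest ratio among the 69 belonged to ENSDART00000113656 (2392 nt), a transcript singled out after its values were seen, with 2882 animal reads and 43 vegetal reads and a ratio of 71.7 (53.1 to 99.3). The counting interval lay wholly above 8 in 60 of the 83 members. In the other 23 it reached below 8, so counting error alone leaves their side of the limit undecided.

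Transcript length, which the rule did not use, was spread much as in other well-counted transcripts. The median was 2199 nt in the 83 members and 1938 nt in the other 7621 transcripts. Those shorter than 1000 nt made up 24.1% of the members and 23.4% of the others, and those of 4000 nt or more 13.3% and 14.3%. Read by length, 1.11% of the transcripts under 1000 nt were members, as were 0.822% of those of 1000 to 1999 nt, and 1.30% of those of 2000 to 3999 nt. Of the 1100 transcripts of 4000 nt or more, 11 were members. These shares lie near the 1.08% of all lengths together.

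Length did differ between parts of the set. The 10 members above 300-fold were 787 nt long at the median, against 2603.5 nt in the 52 members between 8 and 16. Short members were not all extreme, since 8 of those 52 were also under 1000 nt. Across the 83 members Spearman's rho of length with ratio was -0.29, and across the 69 members under 100-fold it was 0.05, so the relation rested on the 14 extreme members. The points share both libraries, and at the same level a short transcript collects fewer reads at either pole. Whether this affects the relation was not tested. The 10 members above 300-fold include the look-alike pairs described below, so they may not be 10 independent items.

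**Figure D3:**
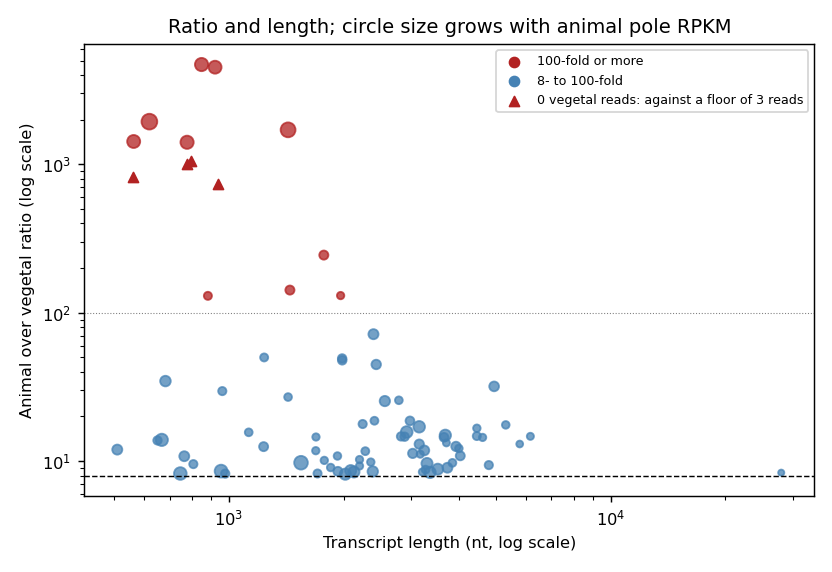
Animal over vegetal ratio (log scale) against transcript length in nt (log scale) for the 83 transcripts, with circle area growing with the animal pole RPKM and triangles for the 4 without vegetal reads. The 10 transcripts above 300-fold all lie at 1429 nt or less, while those between 8- and 100-fold run from 510 to 27998 nt.

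The shortest member was ENSDART00000130051 (510 nt), with 604 animal reads and 54 vegetal reads, a ratio of 12.0 (9.05 to 16.1). It was followed by ENSDART00000136459 and ENSDART00000152067, both described above. At the other end, ENSDART00000152768 was 27998 nt long, with 219 animal reads and 28 vegetal reads spread over 26% and 4% of its length. Its ratio of 8.37 had an interval of 5.63 to 12.9, and it was the only member whose RPKM was listed as 0 in the animal library. ENSDART00000033332 (6164 nt) had a ratio of 14.7 (10.6 to 20.9) and ENSDART00000061141 (5780 nt) a ratio of 13.1 (8.67 to 20.5).

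Reads at the animal pole covered most of the length of most members. The median share of a transcript covered by at least 1 read was 92% in the members and 92% in the other transcripts with at least 200 animal reads, and 62.7% of members and 58.9% of the others were covered to at least 90%. Coverage was under 60% in 5 members (6.02%) and in 392 others (5.14%). With reads of 51 bases falling at random, all but the longest of these 5 would have been covered almost completely. ENSDART00000152067 was covered over 50% of its 563 nt at a mean depth of 480, and ENSDART00000152937 (1930 nt) over 54% at a depth of 59. ENSDART00000135339 was covered over 56% at a depth of 200. ENSDART00000148161 (3737 nt), singled out after its values were seen, was covered over 55% at a depth of 100. In these 4 the reads came from part of the annotated transcript.

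For a pair of these, the vegetal library had reads enough to compare. ENSDART00000148161 was covered over 55% by 4179 animal reads and over 51% by 495 vegetal reads. ENSDART00000152937 was covered over 54% by 1221 animal reads and over 51% by 153 vegetal reads. The covered share was thus nearly the same in both libraries although the number of reads differed about as much as the ratios of 9.03 and 8.54 say. The deposited files give the share of the transcript covered and not its position, so whether the same part was covered was not tested.

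The residual vegetal reads varied from none to many. Of the 83 members, 4 had no vegetal read, 11 had 1 to 9, 31 had 10 to 49, 18 had 50 to 199 and 19 had at least 200. The RPKM was listed as 0 in the vegetal library for 38 members, and 34 of these had vegetal reads, so the listed 0 often hides reads. They were not always few, since ENSDART00000021575 (5313 nt), singled out after its values were seen, had 56 vegetal reads. The 8 vegetal reads of ENSDART00000077418 covered 21% of it, where 24.8% would be covered if 8 reads of 51 bases fell at random. The 4 vegetal reads of ENSDART00000138373 covered 27%, where 28.1% would be covered at random. Both shares were somewhat under the random ones, at mean depths of 1.3 and 1.2, so some of the few vegetal reads overlapped. In ENSDART00000059255, by contrast, the 2 vegetal reads covered 2.6% at a mean depth of 2, where 5.07% would be covered at random, so they lay on the same stretch.

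The same comparison was made over all members with vegetal reads. Observed coverage divided by that of random placement had a median of 1.02 in the 11 members with 1 to 9 vegetal reads, and 0.997 in 9003 other transcripts with as many vegetal reads and at least the length of the shortest member. It was 0.852 in the 31 members with 10 to 49 vegetal reads and 0.788 in 6548 others, 0.716 in 18 members with 50 to 199 and 0.808 in 5382 others, and 0.910 in 19 members with at least 200 and 0.900 in 5108 others with up to 1100. Over all 79 members with vegetal reads the median was 0.850, and 28 of them were under 0.8. The members' median was thus close to that of the others at 1 to 9 reads and at 200 or more. The class of 1 to 9 reads includes transcripts with 1 read, for which the value is close to 1 wherever the read lies. The medians of that class therefore say little about how the reads lay. At the median, vegetal reads lay more evenly along members than along others at 10 to 49 reads. They lay less evenly along members at 50 to 199 reads. Members and others were not matched on length or on exact read number within these classes. The lowest value, 0.493, was that of ENSDART00000106100 (1429 nt), whose 11 vegetal reads covered 16% where 32.5% would be covered at random; it was singled out after its values were seen.

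**Figure D4:**
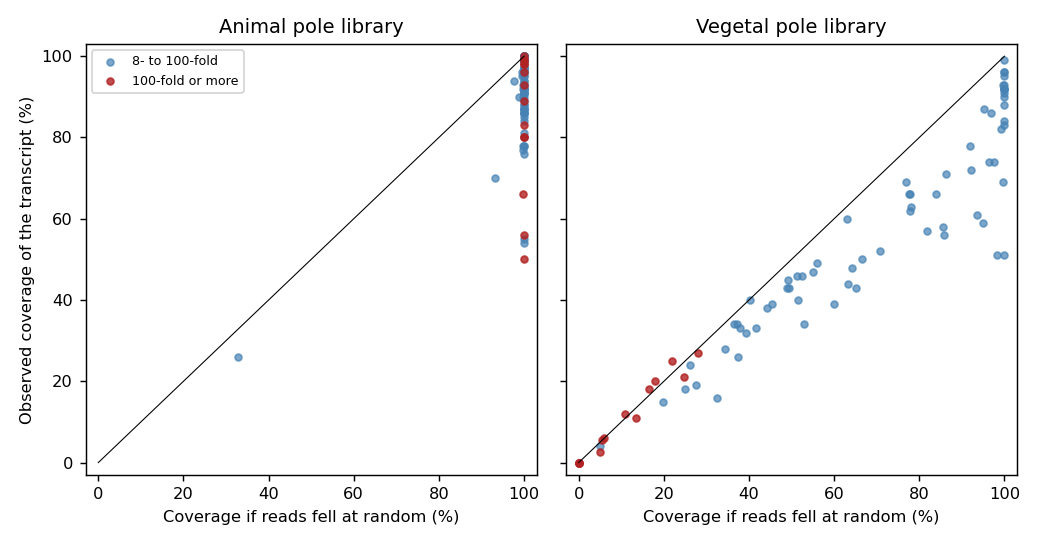
Observed share of each of the 83 transcripts covered by reads (%) against the share expected if its reads of 51 bases fell at random (%), in the animal pole library (left) and the vegetal pole library (right); the line marks equality. Animal coverage is near complete for most transcripts with 5 under 60%. At the median, vegetal coverage is 1.02 of the random share at 1 to 9 reads and 0.852, 0.716 and 0.91 in successively higher classes.

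Several members resembled one another closely, and with no map from transcripts to genes the number of genes behind the 83 is not known. A search after the values were seen grouped members whose length, animal reads and vegetal reads each differed by at most 10%, or by at most 2 reads for the vegetal count. It found 10 groups holding 21 members, which would leave 72 if each group were counted once. The search covered only the 83 members, so how often other transcripts look alike was not measured. Whether the count is particular to the set is therefore not known. One group had 3 transcripts, ENSDART00000115338, ENSDART00000131646 and ENSDART00000011551, with 4546, 4524 and 4523 animal reads and 563, 572 and 592 vegetal reads. The most counted group was ENSDART00000136393 (3152 nt) and ENSDART00000100367 (2923 nt), with 8160 and 8111 animal reads and 512 and 552 vegetal reads. ENSDART00000015881 (3304 nt) and ENSDART00000146281 (3525 nt) had 7010 and 6947 animal reads and 777 and 841 vegetal reads.

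Among the members above 300-fold, the search grouped ENSDART00000137617 with ENSDART00000144217, and ENSDART00000142449 with ENSDART00000137270. Isoforms of a gene, or near-identical copies, that share reads would look like this, and so might unrelated transcripts of like length and level. The files do not tie transcripts to genes or say how shared reads were counted, so this was not tested.

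The values on both sides of the limits show how the set was bounded. Just inside the 8-fold limit were ENSDART00000011551 (8.17), ENSDART00000127815 (8.25) and ENSDART00000145884 (8.26). Just outside were ENSDART00000146386 (7.94), ENSDART00000076362 (7.93) and ENSDART00000002750 (7.90). The last of these had 40324 animal reads and 5460 vegetal reads, more than any member. At the limit on reads, ENSDART00000015117 with 204, ENSDART00000152768 with 219 and ENSDART00000139420 with 220 animal reads were just inside. With 180, 180 and 176 animal reads, ENSDART00000135691, ENSDART00000073907 and ENSDART00000144785 met the 8-fold limit and were just outside. ENSDART00000144785 had 1 vegetal read.

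All 83 members were in the authors' deposited table of differences, which was made from the same reads and so adds no independent evidence. That table lists 605 transcripts as higher at the animal pole, of which 237 had at least 200 animal reads, 3.08% of the 7704. The other 522 animal-higher entries of the authors' deposited table were left out here for having under 200 animal reads (368 transcripts) or a ratio under 8 (154 transcripts). In the authors' deposited table the members had log2 fold changes, given there as vegetal over animal, of -14.60 to -3.05, and FDR values of at most 0.00215. The FDR of the authors' deposited table compares these 2 libraries and cannot take in variation between eggs or preparations.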

How the data were processed

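The authors deposited 1 table of 50038 transcripts. Per the file headers it holds, for each library, the count of mapped reads, the covered percent of the transcript, the average depth of reads (a coverage signal) and the RPKM. Per the submitters' processing notes the genome build was Zv9 and edgeR was used. Not given in the sources used here are the aligner, the counting program and the treatment of strand and shared reads, so transcripts with near-identical copies or overlapping genes are uncertain. A second deposited table lists 1643 transcripts with the p-value, FDR, log2 average level and log2 fold change, the last as vegetal over animal.

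Counts were divided by the total of each library in the table (16533617 reads for the animal and 17685736 for the vegetal pole) and scaled to CPM. RPKM was recomputed from counts, because the deposited RPKM is listed as 0 at low mean depth, as seen in the members. Where it was above 0, in transcripts with at least 500 reads, it differed from the recomputed value by at most 0.0218%. Reads were 51.0 bases long at the median in each library, from depth, covered length and count. Coverage at random was taken as 1 minus the exponential of minus reads times 51 over length. Ratios and shares have 95% exact (Clopper-Pearson) intervals, and a floor of 3 reads stands for 0. With 1 library per pole no test was made. The calculation was checked on simulated counts.

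The members, the gene lists and the alternatives were chosen with earlier results of these data known. Transcripts named are the 10 with the most animal reads, the 10 with the largest lower bound of the ratio, those without vegetal reads, the 3 longest, the 3 shortest, the 3 least covered and the 3 on each side of each limit. Any further transcript is said to have been singled out after its values were seen, or is named in a class described whole or as a look-alike. Alternatives were other limits, scalings by edgeR 4.0.16 and DESeq2 1.42.0 (R 4.3.3), the deposited RPKM with pseudocounts, and 1 transcript per look-alike group. Scripts ran in Python 3.11.15 with scipy 1.17.1, numpy 2.4.6, matplotlib 3.10.9 and pandas 2.3.3.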

Additional observations from a re-analysis of the deposited data

How the results depend on the processing

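The number of members, their share of the animal pole reads and their median length were recomputed under each alternative. TMM scaling (edgeR) and DESeq2 size factors each gave the same 83 transcripts. A 4-fold limit gave 243 transcripts with 3.58% of the animal reads, and a 16-fold limit gave 31 with 0.473% and a median of 1445 nt. At least 100 or 500 animal reads in place of 200 moved the share to 1.18% and 1.12%, with 113 and 61 transcripts. Without a minimum above 1 read, 3369 transcripts with 1.28% of the reads and a median of 1427 nt met the limit, most of them on few reads. Asking for a lower counting bound of 8 moved the share to 0.917% in 60 transcripts. With the deposited RPKM and a pseudocount of 1 the share was 1.05% in 66 transcripts. A pseudocount of 0.1 gave 1.21% in 113 transcripts with a median of 3153 nt, and 80 of the 83 stayed. A pseudocount of 5 gave 22 transcripts with 0.596% and a median of 1184 nt. It lowers the ratio of every member, so it removes members of low level and also members near 8-fold at higher levels. ENSDART00000130129, at 146 RPKM in the animal library and 17.4 RPKM in the vegetal library, was among those removed. Counting each look-alike group once, an alternative added after seeing the data, left 72 transcripts with 0.935%. Other values of number and length stayed within 1.5 times of 83 or within 1848 to 2562 nt. That range is the 95% interval of the median by order statistics. It treats the 83 transcripts as independent draws, which they are not, so it serves only as a yardstick. Leaving out a library was not possible, and the spread between eggs or preparations is unknown. No paired analysis was possible because there was 1 library for each pole.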

Other observations

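Ensembl transcript numbers differed among the members. Numbers of 130000 or more were carried by 10 of the 14 members at 100-fold or more, by 22 of the other 69, and by 2291 of the 7621 other transcripts with at least 200 animal reads (30.1%). In the mirror-image vegetal set 70 of 185 (37.8%) carried such numbers. The limits of 130000 and of 100-fold were both chosen after the values were seen. The number is not a position in the genome, and the 14 include look-alike transcripts, so they may not be 14 independent items.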
